A study of Ovis aries and Mus musculus with 20 samples.

Results

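The genes described here are 10 core circadian clock genes in mouse fat: *Clock*, *Bmal1* (*Arntl* in older annotations), *Per1*, *Per2*, *Per3*, *Cry1*, *Cry2*, *Nr1d1*, *Nr1d2* and *Rora*. They were chosen by name, as the activators, repressors and nuclear receptors of the clock, and all 10 were found among the 20621 autosomal protein-coding mouse genes of the GENCODE M39 annotation of GRCm39. The mouse samples were 2 Hi-C libraries of inguinal white adipose tissue (iWAT), a subcutaneous fat depot. Each library came from a pool of 10 female Kunming mice, a non-inbred laboratory stock, aged 32 weeks and fasted before collection. The tissue was frozen, and after thawing and crosslinking the layer that held adipocytes was lysed for nuclei. The rest of the 20 samples of the series came from sheep and were not used. No mouse RNA and no second mouse condition were analysed here, and the time of day of collection is not given in the sources used here. The values therefore describe the chromosome contacts of the clock genes and not how strongly they were transcribed.

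The circadian clock is a feedback loop that runs in nearly every cell. CLOCK and BMAL1 form a dimer that binds E-box sequences and turns on the *Per* and *Cry* genes, whose proteins return to the nucleus and block that dimer. The dimer also drives *Nr1d1* and *Nr1d2*, whose proteins REV-ERBα and REV-ERBβ repress *Bmal1*, while RORα activates it from the same sites. In adipocytes the clock is known to time lipolysis and the release of leptin, and *Nr1d1* and *Rora* take part in fat cell differentiation.

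The contacts of a gene were read from the A-B index, a signed score of each 20-kb bin made by the authors for each library. The score is positive where a bin contacts the gene-rich, active A compartment of its chromosome more than the compact B compartment, and negative in the opposite case. Over 123133 bins the pools had a correlation of 0.988 and the same sign in 96.4% of bins, but pool 2 had the narrower scale, with an SD of 3.42 over bins against 3.77 in pool 1. Since each chromosome was scored on its own, a percentile among all genes and a percentile among the genes of the same chromosome are both given. Errors are the SD between the 2 pools. With 1 group there was no contrast to test, so counts and medians of the clock genes are set beside those of all genes. Of all genes 75.6% had starts above 0 in both pools, and the median gene had 3.26. Among genes that mark cell types, the 8 adipocyte genes had a median of 4.62, from *Adipoq* at 2.73 to *Lipe* at 7.96. All 8, *Plin1* and *Pparg* included, had starts above 0 in both pools. Of the genes of other cell types, 3 of 3 endothelial, 3 of 4 mammary epithelial, 2 of 4 macrophage, 2 of 3 progenitor, 2 of 3 skeletal muscle, 1 of 2 hepatocyte and 1 of 3 neuronal genes did, with medians between -1.84 in the neuronal and 4.20 in the muscle genes. The 3 muscle genes ran from *Myh1* at -2.57 through *Acta1* at 4.20 to *Ckm* at 9.25, so the score of a gene was not read as its transcription in fat.

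All 10 clock genes started in compartment A in both pools, where 75.6% of all genes did. Most bins of the gene were above 0 in both pools in all 10, against 74.1% of all genes, and every bin was in all 10, against 72.0% of all genes. The start bins had a median of 4.93 in the clock genes and 3.26 over all genes, on the mean of the pools. Lowest of the clock genes was *Cry1* at 2.23, which still lay above the lower quartile of all genes at 0.27. *Cry2* was highest at 6.78. Of the 10 genes, 8 lay above the median gene and 8 above the median gene of their own chromosome. These were not the same sets, since *Clock* passed only the measure over all genes and *Rora* only that within its chromosome. *Clock* passed on the mean and in pool 1, but in pool 2 it had 2.95 against 3.06 for the median gene, so 7 of 10 were above the median gene in both pools.

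**Figure D1:**
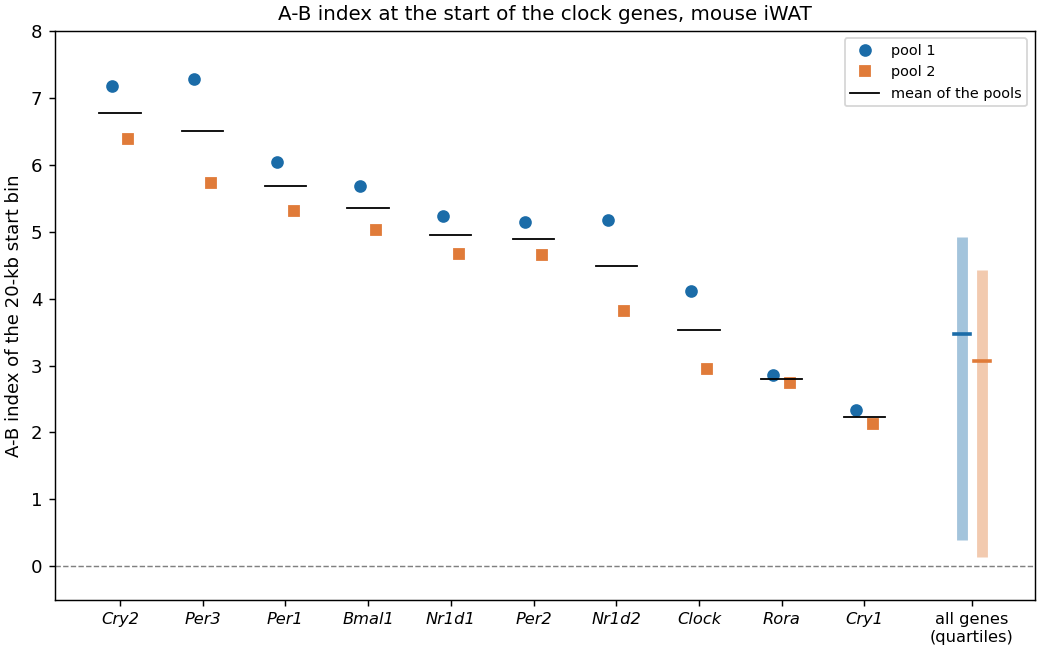
A-B index of the 20-kb bin that holds the start of each clock gene in pool 1 (circles) and pool 2 (squares), with the mean of the pools as a line, from the highest mean to the lowest. Bars at the right span the quartiles of 20621 protein-coding genes in each pool, with the median as a line. Every clock gene lies above 0, and *Rora* and *Cry1* lie below the median of all genes in both pools.

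By the mean of the pools the order was *Cry2*, *Per3*, *Per1*, *Bmal1*, *Nr1d1*, *Per2*, *Nr1d2*, *Clock*, *Rora* and *Cry1*. Compared within each pool, 7 of the 9 neighbouring steps ran the same way in both, and 2 were exchanged, those of *Cry2* and *Per3* at the top and of *Per2* and *Nr1d2* in the middle. Pool 2 was the lower for all 10 genes, and across the pools the values of neighbours overlapped in 7 of the 9 steps, all but those below *Clock* and below *Rora*.

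The activators lay at different heights. *Clock* (chr5:76342860-76452846, minus strand) encodes the partner of BMAL1 in the dimer and had a start index of 4.12 in pool 1 and 2.95 in pool 2, a mean of 3.53 ± 0.826 (SD, n = 2). This stood at percentile 54.1 of all genes and 42.7 of the genes of chromosome 5. *Bmal1* (chr7:112806152-112914735, plus strand), whose loss stops the clock in mice, had 5.68 and 5.02, a mean of 5.35 ± 0.464, at percentile 85.3 of all genes. On chromosome 7, where the median gene had 4.62, this was percentile 57.3 only. *Bmal1* minus *Clock* was 1.56 in pool 1 and 2.08 in pool 2, so *Bmal1* was the higher in both.

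Around *Bmal1* all 50 bins within 500 kb of the gene were above 0 in both pools, with a mean of 3.70. Only 4 other protein-coding genes started within 500 kb of the start of *Bmal1*. Its start bin was the highest of the 51 bins centred on it in pool 1 and ranked 2 in pool 2. The start bin of *Clock* ranked 4 and 5, and the mean around that gene was 1.98. Within its TAD, a stretch of DNA that contacts itself more than its surroundings, *Bmal1* shared 420 kb with 1 other gene start, that of *Rassf10*, at 4.03. *Btbd10*, which ends just past the 3′ end of *Bmal1*, had its start at 4.32. *Clock* lay in a TAD of 680 kb with 8 genes whose start indices ran between 1.47 at *Exoc1l* and 4.00 at *Tmem165*. The others were *Kdr* at 2.59, *Srd5a3* at 3.69, *Pdcl2* at 2.92, *Nmu* at 2.24 and *Exoc1* at 2.76, and *Clock* itself ranked 3. *Npas2*, which can stand in for *Clock* in the dimer, had 4.19 and 3.57, a mean 0.35 above that of *Clock*.

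The 3 *Per* genes, which encode the repressors that carry CRY proteins to the nucleus, were all in the upper part of the distribution. *Per1* (chr11:68986035-69002300, plus strand) had 6.05 and 5.31, a mean of 5.68 ± 0.524, at percentile 88.6 of all genes and 93.5 of chromosome 11. *Per2* (chr1:91343700-91387069, minus strand) had 5.14 and 4.66, a mean of 4.90 ± 0.344, at percentiles 79.0 and 86.6. *Per3* (chr4:151081373-151129140, minus strand) had 7.29 and 5.73, a mean of 6.51 ± 1.10, at percentiles 93.7 and 91.0. The *Per* genes therefore stood between percentiles 86.6 and 93.5 of their own chromosomes, and *Per3* exceeded *Per2* by 2.15 in pool 1 and 1.08 in pool 2.

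The neighbourhoods of the *Per* genes were of different kinds. *Per1* and *Per2* were surrounded by A alone, with 50 of 50 bins above 0 in both pools and means of 4.90 and 4.06, so their start bins were just 0.78 and 0.83 above their surroundings. *Per1* sat in the densest TAD of the set, 700 kb with 30 genes, between *Vamp2* at 5.88 and *Hes7* at 5.92. *Per2* sat in a TAD of 580 kb with 14 genes and had *Hes6* at 4.93 on its 3′ side and *Traf3ip1* at 4.60 on its 5′ side. *Hes6* and *Hes7* encode related transcription factors of the Hes family, and *Vamp2* and *Vamp3* encode related vesicle SNAREs. *Vamp3* neighbours *Per3*, at a start index of 6.41.

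*Per3* stood at an edge. Over the 500 kb downstream of the gene all 25 bins were above 0 in both pools, with a mean of 5.87, while the 500 kb upstream had a mean of 0.48, with 11 bins above 0 and 12 below 0 in both pools. Moving upstream, the mean index was 6.41 at 20 kb from the start bin, 4.42 at 40 kb, 3.16 at 100 kb and 0.47 at 160 kb, and it was below 0 in both pools at 260 kb. The start of *Per3* was also the nearest of the 10 to a TAD edge, at 10.9 kb, and the TAD of 420 kb extended downstream from there. Its 6 genes were *Slc45a1* at 5.43, *Errfi1* at 5.19, *Park7* at 6.63, *Tnfrsf9* at 6.44 and 5.56 in the 2 pools, *Uts2* at 6.25 and *Per3* itself, which ranked 2. The start bin of *Per3* exceeded the mean of its surroundings by 3.34, a difference at percentile 94.4 of all genes.

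Short stretches before the starts are given where they hold the letters of motifs that clock proteins are known to bind. Binding to these sites was not measured. In the 250 bases upstream of each canonical start, the perfect E-box CACGTG, the site of the CLOCK and BMAL1 dimer, was searched on both strands and was found in 2 of 10 clock genes and in 6.31% of all 20621 windows. The D-box TTATGTAA, the site of the factors DBP, TEF and HLF, was found in 2 of 10 clock genes and in 0.849% of windows. The core AGGTCA of the element bound by ROR and REV-ERB proteins was found in 1 of 10 clock genes and in 13.2% of windows. None of the sites overlapped another. The sites are shown as 30 bases of GRCm39, 5′ to 3′ on the strand of the gene, with the motif in capitals. That of *Per1* covers chr11:68989234-68989263 on the plus strand. That of *Cry1* covers chr10:85020961-85020990 on the minus strand. The sites of *Per1* and *Cry1* lie inside the gene records, which begin upstream of the canonical starts. That of *Per2* covers chr1:91387153-91387182, those of *Per3* chr4:151129309-151129338 and chr4:151129262-151129291, all on the minus strand, and that of *Nr1d2* chr14:4230501-4230530 on the plus strand.
Per1 E-box: accccttaacgaCACGTGggccctcaattg
Cry1 E-box: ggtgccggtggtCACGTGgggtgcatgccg
Per2 D-box: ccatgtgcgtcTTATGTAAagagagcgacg
Per3 D-box, site 1: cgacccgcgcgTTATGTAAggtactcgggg
Per3 D-box, site 2: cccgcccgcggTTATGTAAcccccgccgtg
Nr1d2 AGGTCA: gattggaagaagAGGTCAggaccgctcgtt

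The E-boxes of *Per1* and *Cry1* began 22 and 29 bases before the start, and the D-boxes of *Per3* 187 and 140 bases before it. The genes with an E-box in this window were far apart in the A-B index, *Per1* at 5.68 and *Cry1* at 2.23. The genes with a D-box were *Per2* at 4.90 and *Per3* at 6.51. *Clock*, *Bmal1*, *Cry2*, *Nr1d1* and *Rora* held none of these letters in the window, which does not bear on sites elsewhere or on sites of other spelling.

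By the mean start index the *Cry* genes, which encode the main repressors of the dimer, were the highest and the lowest of the set. By percentile within the chromosome neither was an extreme: *Per1* was the highest at 93.5 and *Clock* the lowest at 42.7. Over all bins of the gene *Cry2* was still the highest at 7.43, but *Rora* was the lowest at 2.24 and *Cry1* had 2.85. *Cry2* (chr2:92233894-92264474, minus strand) had 7.18 and 6.39, a mean of 6.78 ± 0.554, at percentile 94.9 of all genes and 82.8 of chromosome 2. *Cry1* (chr10:84967560-85021252, minus strand) had 2.34 and 2.12, a mean of 2.23 ± 0.150, at percentile 38.4 of all genes and 44.4 of chromosome 10. *Cry2* minus *Cry1* was 4.84 in pool 1 and 4.27 in pool 2, so the paralogs did not overlap and the gap was several times the SD of either.

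*Cry2* was embedded in A. All 50 surrounding bins were above 0 in both pools with a mean of 6.27, the highest of the 10, and the nearest bin below 0 in both pools lay 2020 kb away. Its own start bin did not stand out there: it ranked 27 and 21 of 51 bins and was the lowest of the 17 start indices in its TAD of 840 kb, in which the median was 7.73. It lay 35.5 kb from the upstream edge of that TAD, and the mean was 5.14 over the 500 kb upstream against 7.40 downstream. *Mapk8ip1*, the neighbour on its 3′ side, had 7.80 and *Slc35c1*, on the other side, 7.32.

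*Cry1* also lay where the index rose downstream, but at a lower height. The 500 kb upstream had a mean of 0.51, with 18 of 25 bins above 0 in both pools, and the 500 kb downstream had a mean of 2.70 with all 25 above 0. Of the upstream bins 2 were below 0 in both pools, that at 100 kb with -0.43 and -0.22 and that at 140 kb with -0.09 and -0.57. The index was 2.23 in the start bin and 3.52 in the next bin downstream, which was the highest of the 4 bins of the gene. A TAD edge cut the gene: its start lay 20.9 kb inside a TAD of 720 kb with *Abtb3* at 1.18 and *Pwp1* at 2.07, a further 20 kb formed the gap between TADs, and the last 12.4 kb of the gene lay inside the next TAD of 620 kb, together with its 3′ neighbour *Mterf2* at 2.88.

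The REV-ERB genes had like start indices in unlike places. *Nr1d1* (chr11:98658752-98666188, minus strand) had 5.24 and 4.67, a mean of 4.95 ± 0.403, at percentile 79.9 of all genes and 78.4 of chromosome 11. *Nr1d2* (chr14:4230545-4266624, plus strand) had 5.18 and 3.81, a mean of 4.50 ± 0.962, at percentile 72.1 of all genes and 85.0 of chromosome 14. *Nr1d1* minus *Nr1d2* was 0.06 in pool 1 and 0.85 in pool 2, within the SD between the pools of *Nr1d2*.

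*Nr1d1* overlaps *Thra*, the gene of thyroid hormone receptor α, at their 3′ ends, and lay within an unbroken run of 5580 kb of bins above 0 in both pools that held the starts of 149 genes. Its surroundings had a mean of 4.13, and *Thra* had 5.35, as had *Med24* with a start in the same bin, while *Msl1* on the 5′ side had 4.62. *Nr1d2* lay instead in a run of 220 kb that held 4 starts, those of *Ube2e1* at 2.50, *Nkiras1* and *Rpl15* in the same bin at 3.61, and *Nr1d2* itself. Upstream of the gene 15 of 25 bins were below 0 and 7 above 0 in both pools. Downstream 9 of 25 were below 0 and 7 above 0 in both pools, with a mean of -0.17, so that side was mixed about 0. *Thrb*, the gene of thyroid hormone receptor β, is the next gene downstream of *Nr1d2*, with 163 kb between them and no overlap, and had a start at -0.78 and -0.59. The *Thra* and *Thrb* starts were therefore on opposite sides of 0 while the *Nr1d1* and *Nr1d2* starts were both in A.

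*Nr1d2* was thus a local peak. Its surroundings had means of 0.15 in pool 1 and -0.19 in pool 2, the only ones of the 10 below 0 in a pool, and its start bin exceeded them by 4.51, at percentile 98.5 of all genes. Its start bin was the highest of the 51 bins centred on it in both pools, which was true of no other clock gene and of 1.61% of all genes. Within the gene the index was 4.50, 3.22 and 1.87 in the 3 bins along its 36.1 kb, and 100 kb downstream of the start bin it was -0.96 and -0.92. Over a 100-kb window in place of the 20-kb bin the value of *Nr1d2* was 2.88. *Nr1d2* was also the only clock gene whose start was outside any TAD. The TAD list of chromosome 14 begins 29.5 kb downstream of that start, so the last 6.62 kb of the gene were inside the first TAD listed, and no TAD position was listed on its upstream side. No list of a clock gene chromosome began at its first bases. On the others the first TAD began between base 3400001 (chromosome 10) and base 4520001 (chromosome 9).

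**Figure D2:**
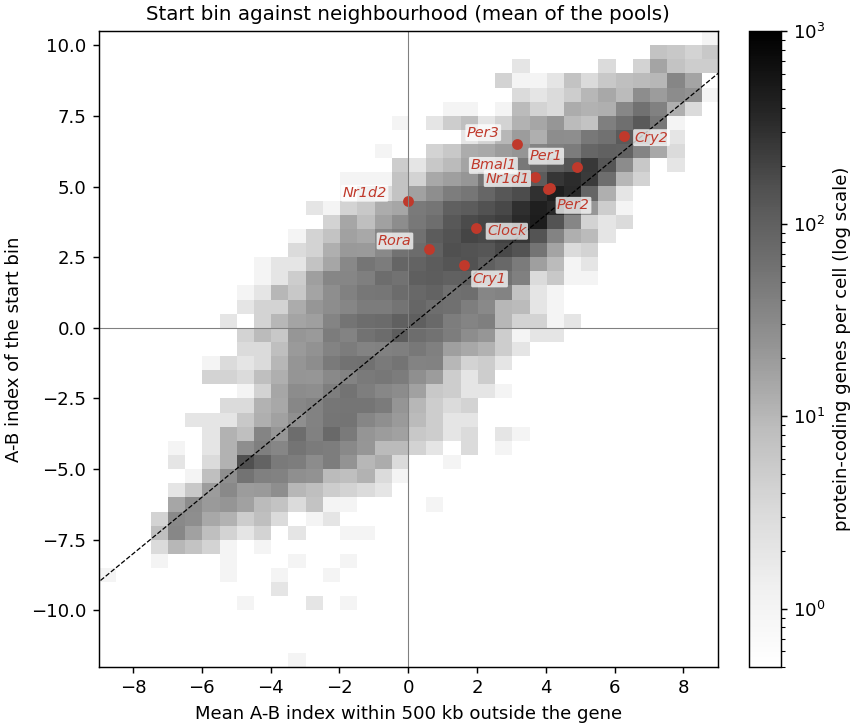
A-B index of the start bin against the mean A-B index within 500 kb outside the gene, both as means of the pools. Points are the 10 clock genes, grey cells count the 20621 protein-coding genes on a log scale, and the dashed line marks equal values. All 10 clock genes lie above the dashed line, *Nr1d2* and *Per3* farthest above it, by 4.51 and 3.34.

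In the 10 clock genes the start bin was higher than the mean of the surrounding 500 kb in both pools, and this held for 62.5% of all genes. The median excess was 1.19 in the clock genes and 0.53 over all genes. The surroundings themselves had a median of 3.43 in the clock genes and 2.09 over all genes, and their mean was above 0 in both pools for 9 of 10 clock genes, against 70.2% of all genes. All surrounding bins were above 0 in both pools for 5 of them (*Bmal1*, *Per1*, *Per2*, *Cry2* and *Nr1d1*), against 37.1% of all genes. The clock genes were in places with fewer genes than most. Within 500 kb of the start lay a median of 7.5 other protein-coding starts, against 16 for all genes. *Nr1d1* had 33 and *Per1* 32, but *Rora* had 3. The GC content of the start bin had a median of 46.3% in the clock genes and 45.0% over all genes. Start index and GC content had a correlation of 0.68 across all genes, which share libraries and chromosomes. *Clock* had 41.5% and *Per1* 53.6%, and the part of base composition in the values was not tested.

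*Rora* (chr9:68561068-69295528, plus strand), whose protein activates *Bmal1*, is a gene of 734 kb, by far the longest of the 10. Its canonical start had 2.86 and 2.74, a mean of 2.80 ± 0.085, at percentile 44.1 of all genes and 55.0 of chromosome 9. All 37 of its bins were above 0 in both pools. The index was lowest toward the 5′ end and highest toward the 3′ end, with means of 1.56, 2.26, 2.27 and 2.93 over 4 successive stretches of 9 or 10 bins. In the lowest bin the mean was 0.91, and in the highest, the last bin of the gene, it was 3.45.

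The start matters for *Rora*, because its longest transcripts begin 636 kb upstream of the canonical one. At that far start the index was 0.76 in pool 1 and 1.18 in pool 2, a mean of 0.97, against the 2.80 of the canonical start. The 500 kb upstream of the gene had a mean of -0.27, with 16 of 25 bins below 0 in both pools, and the 500 kb downstream had 1.46, with none below 0 in both. *Vps13c*, the nearest gene on that upstream side, lay 656 kb away and had 4.07. A TAD edge fell within the gene too. The first 58.9 kb lay in a TAD of 700 kb and the last 656 kb in a TAD of 800 kb, together with the starts of *Ice2* at 3.70 and *Anxa2* at 3.95, both higher than that of *Rora*.

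**Figure D3:**
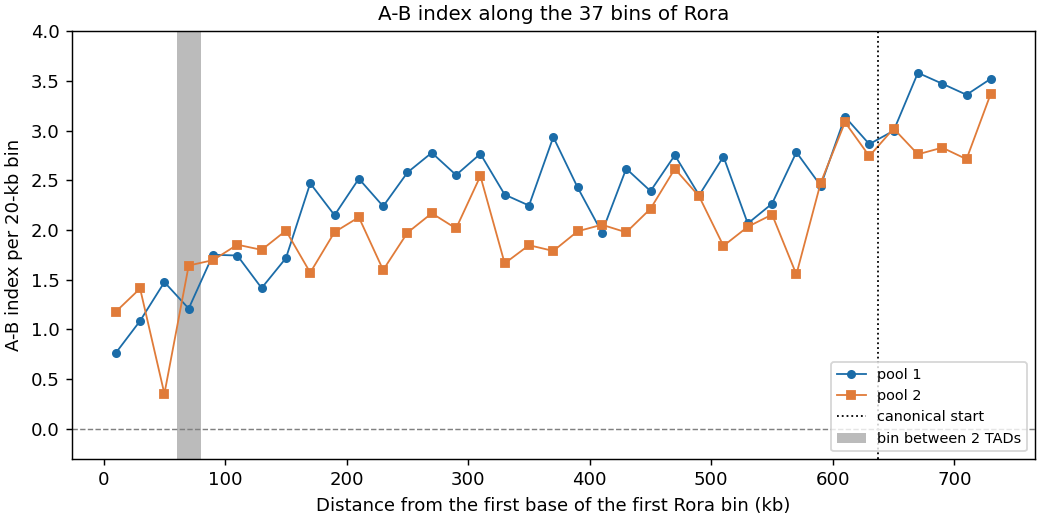
A-B index of the 37 bins of 20 kb that hold *Rora*, in the direction of transcription, for both pools. The dotted line marks the canonical start and the grey band the bin between TADs. Every bin is above 0, and the bins nearest the far start (0.76 and 1.18) are lower than that of the canonical start (2.86 and 2.74).

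The paralog *Rorb* lay far from *Rora*. *Rorb*, best known from the retina and brain, had -5.71 and -5.74, which put *Rora* above it by 8.58 in pool 1 and 8.48 in pool 2.

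The TADs that held the clock genes were of ordinary size, with a median of 680 kb in the 9 clock genes that were in a TAD and 680 kb over all genes in a TAD. A start inside a TAD was found for 9 of 10 clock genes and 93.8% of all genes. The starts lay a median of 69.6 kb from the nearest TAD edge in the clock genes and 142 kb over all genes, and 5 of 10 (*Per2*, *Per3*, *Cry1*, *Cry2* and *Nr1d2*) were within 60 kb, against 26.8% of all genes. With edges between adjoining TADs only, the medians were 110 kb in the clock genes and 148 kb over all genes, and 4 of 10 clock genes were within 60 kb. That change came from *Nr1d2* alone, which was 29.5 kb from the edge of the first TAD listed on its chromosome and 869 kb from an edge between adjoining TADs. Without *Nr1d2* the median of the other 9 was 86.2 kb by either measure. The farthest from any edge were *Clock* at 267 kb and *Rora* at 243 kb. A TAD edge fell within the gene in 3 of 10 (*Cry1*, *Nr1d2* and *Rora*), against 10.2% of all genes. In *Nr1d2* that edge was the start of the first TAD listed on its chromosome. The clock genes covered a median of 3 bins, with 37 for *Rora*, and all genes 2, and the part of gene length was not tested. TADs had been called on the map of both pools together, so these distances have no replicate error, and bins of 20 kb limit them.

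**Figure D4:**
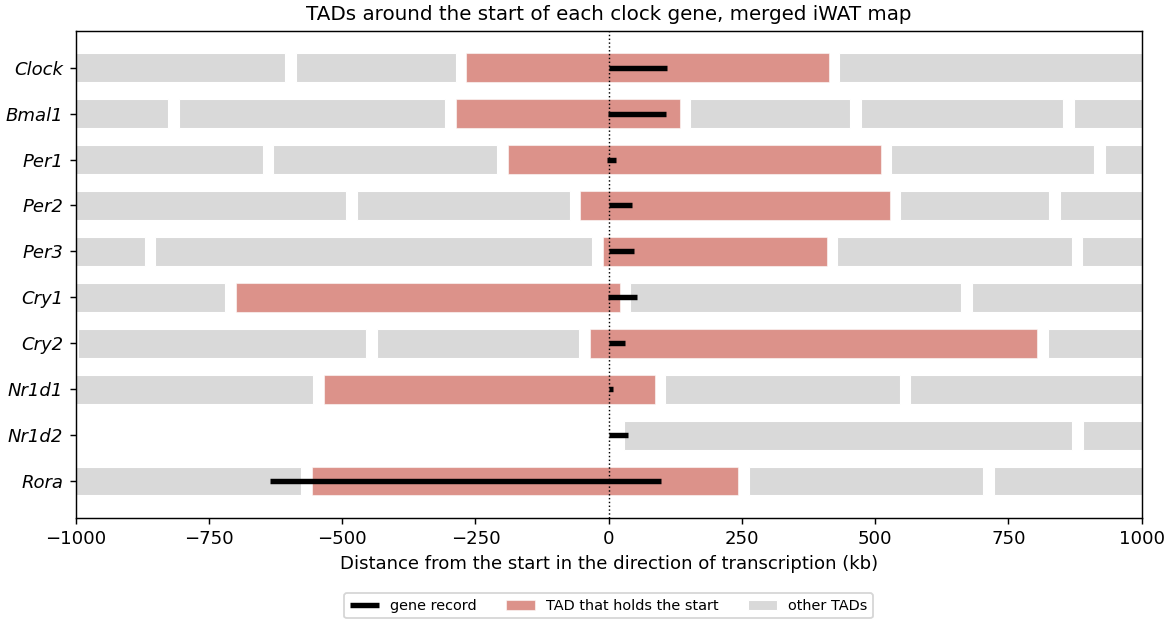
TADs of the merged map around each start, in kb in the direction of transcription. The black line is the gene record, red bars are the TAD that holds the start and grey bars other TADs. The starts of *Per3*, *Cry1*, *Nr1d2*, *Cry2* and *Per2* lie 10.9 to 53.0 kb from a TAD edge, and no TAD is listed on the upstream side of *Nr1d2*.

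All 10 clock genes had a lower start index in pool 2 than in pool 1, and so did 71.0% of all genes and 79.9% of the genes that were above 0 in both pools. The median difference, pool 2 minus pool 1, was -0.70 in the clock genes and -0.35 over all genes, and it was most negative in *Per3* at -1.56, *Nr1d2* at -1.36 and *Clock* at -1.17. The narrower scale of pool 2 moved with this. After quantile normalization of the pools 3 of 10 clock genes were lower in pool 2, against 46.4% of all genes. They were the same 3 genes, at -0.74 for *Per3*, -0.78 for *Nr1d2* and -0.70 for *Clock*, sizes at percentiles 81.7, 84.1 and 79.0 of all genes. The other 7 then had differences of 0.01 to 0.30. The pools are labelled as replicates, and the SD between them is given as the error of the values above. That SD also takes in the unlike scales of the pools.

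Of 25 further clock genes (output factors, kinases, ubiquitin ligases and cofactors of the loop), 23 had starts above 0 in both pools, a share of 92.0%, and their median was 3.83, between the 4.93 of the 10 core genes and the 3.26 of all genes. *Dbp*, which encodes a factor that binds the D-box, was the highest of the 25, at 9.49 and 8.55, percentile 99.7 of all genes, and also lay above the 10 core genes. *Bhlhe41*, a repressor that competes for E-boxes, came next of the 25 at 5.96 and 5.19, and *Csnk1d*, whose kinase marks PER proteins for degradation, at 6.15 and 4.96. The lowest were *Rorb*, *Hlf* at -2.00 and -1.80, and *Fbxl21*, a ubiquitin ligase subunit for CRY proteins, at 2.78 and 2.43.

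Of the genes of the factors DBP, TEF and HLF, *Dbp* and *Tef* (4.68 and 4.25) had starts above 0 in both pools and *Hlf* did not. *Dbp* minus *Hlf* was 11.5 in pool 1 and 10.3 in pool 2, and *Dbp* minus *Tef* 4.82 and 4.31. In *Hlf* none of the 4 bins was above 0 in either pool. *Bhlhe41* exceeded its paralog *Bhlhe40* by 2.20 and 1.81.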

How the data were processed

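The A-B index (a signed score) and the TAD positions were deposited by the authors. Per the paper's methods, reads were aligned with BWA and filtered in Juicer, coarse compartments came from principal components, and the index compares the contacts of a 20-kb bin with both compartments of its chromosome, per library. TADs came from insulation scores of merged maps. Contact counts per bin are not in the score, so its depth is unknown here.

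The files' build was checked: 19 of 19 autosomes had the number of bins of GRCm39. Genes, canonical starts and sequences were taken from GRCm39 and GENCODE M39. Scores were read at the start bin, over the gene record and over 500 kb on either side, with the mean and SD of the 2 pools. A bin was called A above 0. No test was run, since there was 1 group. Reading of positions was tested on made-up tables with known answers. Python 3.11.15, numpy 2.4.6, pandas 2.3.3 and matplotlib 3.10.9 were used.

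The genes, lists and comparisons were chosen with earlier results of these data known. All 10 clock genes are named. Of the 25 further ones, the 3 highest, the 3 lowest and any below 0 in a pool are named, as are nearest neighbours and all genes of TADs with up to 8 genes. Paralogs, cell type genes given as examples and the genes of the short run around *Nr1d2* were named after their values were seen. Alternatives covered the pools, scaling, centring, bin size, choice of start, reach and boundaries. Sheep files were not used.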

Additional observations from a re-analysis of the deposited data

How the results depend on the processing

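No clock gene fell below 0 in any alternative. Of 41 alternative values of single genes (each pool alone and identical starts left out), 9 moved by more than the SD between pools. Quantile normalization could hardly move the mean of the pools, as with 4.47 for *Nr1d2* against 4.50. The SD also differed between genes. *Per3* at 5.55 in the 100-kb window, against 6.51, was within its SD of 1.10. *Rora* at 2.98 over 3 bins, against 2.80, was beyond its SD of 0.085. The 100-kb window gave 1.61 for *Cry1*, 7.46 for *Cry2* and 2.88 for *Nr1d2*, and the start of the longest record gave 0.97 for *Rora*. All 10 starts stayed above 0 in every alternative run (each pool alone, 3 bins around the start, the start of the gene record, the 100-kb window, quantile normalization and centring by chromosome). Each pool alone could not give otherwise, since the main call needed both pools. The start of the gene record lay in another bin for *Rora* only. With each pool alone the medians were 4.66 to 5.21 at the start, 4.45 to 5.13 over the gene and 3.29 to 3.58 in the surroundings.

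The median of the surroundings was 4.13 with a reach of 250 kb, against 3.43 as reported. The median distance to a TAD edge was 55.9 kb from the start of the gene record and 110 kb with boundaries between adjoining TADs only, where *Nr1d2* alone moved. The median absolute difference between the pools was 0.159 after quantile normalization, against 0.698. The cause of the other shifts was not tested. No paired analysis was possible because the results come from no test and there is 1 mouse group. The limits are 2 pools with no known depth per bin, TADs without replicates and no RNA.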
